A study of Homo sapiens with 12 samples.

Results

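The genes described here are the receptors, carrier proteins and metabolic enzymes of retinoic acid signalling: RARA, RARB, RARG, RXRA, RXRB, CRABP1, CRABP2, CYP26A1, CYP26B1 and DHRS3. They were chosen by gene symbol, and all 10 were found among the 18739 genes of the deposited tables. The study sequenced total RNA of the human neuroblastoma line SK-N-SH, with 3 libraries in each of 4 groups. The DMSO group received the solvent and the chaetocin group received chaetocin at 50 nM, an inhibitor of histone lysine methyltransferases that include SUV39H1. The siNC group was transfected with a control RNA and the siSUV39H1 group with an RNA directed at SUV39H1, the enzyme that writes the repressive mark H3K9me3. All groups were grown in MEM with serum, the first 3 are given as wild type and the last as a SUV39H1 knockdown, and neither a treatment time nor an added retinoid is named in the labels. The design text calls the silencing constructs shNC and shSUV39H1 and the replicates biological, while the names used here are those on the samples. All libraries come from the same line, which is known to hold both neuroblast-like and substrate-adherent cells, and no separate cultures are named, so p-values measure the spread between these libraries, which may be technical.

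Retinoic acid is made from retinol by oxidation through retinaldehyde and binds the retinoic acid receptors (RARs), which sit on DNA as heterodimers with retinoid X receptors (RXRs). CRABP proteins carry retinoic acid in the cytosol, CYP26 enzymes degrade it, and DHRS3 returns retinaldehyde to retinol. RARB, CYP26A1, CYP26B1, DHRS3 and CRABP2 are themselves known targets of retinoic acid, which drives the differentiation of neuroblastoma cells and is used in the treatment of high-risk neuroblastoma.

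The direct contact between receptor and target is known best at RARB and CYP26A1, whose promoters hold the motif that RAR-RXR dimers read, 2 copies of a core in the same direction separated by 5 bases (DR5). Each core searched was either AGGTCA, the consensus, or its variant spelled AGTTCA, or the forms that begin with G instead, namely GGGTCA as well as the variant GGTTCA, on both strands. Among 35116 RefSeq promoter windows of equal length around gene starts (GRCh38.p14), 0.0883% held a DR5 with these cores, and the windows of all 10 members numbered 20. Of these, 1 of RARB and 1 of CYP26A1 held it, and none of the 20 held the same cores at a spacing of 1 base (0.131% of all windows) or 2 bases (0.0399%). Both promoters were known to hold the motif, and the cores searched include theirs, so these matches do not measure an enrichment among the members. The stretches of 150 bases around both elements are shown because they carry the sequence shared by the most strongly induced receptor and a degrading enzyme that stayed near 0, with the element in capitals and both written on the plus strand.
RARB, chr3:25428113-25428262: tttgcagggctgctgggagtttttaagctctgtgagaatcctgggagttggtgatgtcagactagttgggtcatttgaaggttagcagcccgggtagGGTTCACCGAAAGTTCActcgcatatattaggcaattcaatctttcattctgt
CYP26A1, chr10:93073743-93073892: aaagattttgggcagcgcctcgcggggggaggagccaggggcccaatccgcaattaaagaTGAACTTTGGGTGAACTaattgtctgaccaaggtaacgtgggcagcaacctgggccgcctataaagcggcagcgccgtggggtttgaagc
The RARB element runs from 53 to 37 bases before 1 of its 4 annotated starts, and that of CYP26A1 from 90 to 74 bases before 1 of its 2. Both of these starts lie inside the span of the gene, downstream of the outermost start. The CYP26A1 element reads in the motif's direction on the opposite strand. With only the cores in capitals and each read in the direction of the motif, they are as follows.
RARB element: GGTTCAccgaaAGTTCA
CYP26A1 element: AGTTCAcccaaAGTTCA
They share 15 of 17 bases and differ by G1A and G9C, counted from the 5′ end of the element with the base of RARB written first. A match describes these letters only, and counts per gene do not separate the starts of either gene.

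In TPM, the deposited unit that allows levels of different genes to be compared, CRABP2 was the highest member in all 4 groups and CYP26A1 the lowest. In DMSO, CRABP2 stood at 278 ± 22.2 TPM (SD, n = 3), followed by RARG at 67 ± 1.69 and DHRS3 at 63 ± 4.93, whose ranges overlapped. RARA at 53.1 ± 5.31 TPM and RXRB at 36.2 ± 0.366 came next. Then RXRA at 14.1 ± 0.973 TPM and CRABP1 at 12.7 ± 0.884 overlapped. RARB stood at 2.69 ± 0.223 TPM, CYP26B1 at 0.417 ± 0.0702, and CYP26A1 at 0. Under chaetocin RARB reached 28.1 ± 0.991 TPM, with a range overlapping that of RXRB at 27.5 ± 0.199 and that of RARA at 24.8 ± 2.01 (27 TPM in the lowest RARB library against 27.1 TPM in the highest RARA library).

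SUV39H1 itself checks the labels of the knockdown. Its level was 16.7 to 18.7 CPM (counts scaled to the library total with edgeR's TMM factors) with siNC and 5.48 to 6.07 CPM with siSUV39H1, and 19.6 to 24.6 CPM with DMSO against 7.44 to 7.83 CPM with chaetocin. In siNC against DMSO, SUV39H1 differed by -0.30 ± 0.10 on the log2 scale (edgeR adjusted p = 0.0316). That call was lost without DMSO replicate 3 (-0.19, adjusted p = 0.17), without siNC replicate 2 (0.0724) or siNC replicate 3 (0.105), and with library totals, TPM, the 6 libraries alone or the replicate block (adjusted p 0.0537 to 0.121). Total counts were 18004632 to 19976995 per library. Of the 10 members, 9 passed the filter on low counts and were tested among 15051 genes, and CYP26A1 did not pass. Chaetocin changed 8 of the 9 at an adjusted p under 0.05, beside 79.5% of all genes tested, a background so high that the members' share is near it. It raised 3, beside 41.1% of all genes, and lowered 5, beside 38.4%. SUV39H1 knockdown changed 4 of the 9, beside 33.9% of all genes, and raised 1, beside 15.3%, and lowered 3, beside 18.6%. With library totals only, and likewise on TPM, knockdown raised 3 and lowered 3. The groups did not overlap for 8 of the 9 members with chaetocin (82.8% of all genes) and for 5 of the 9 with knockdown (42.3%).

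**Figure D1:**
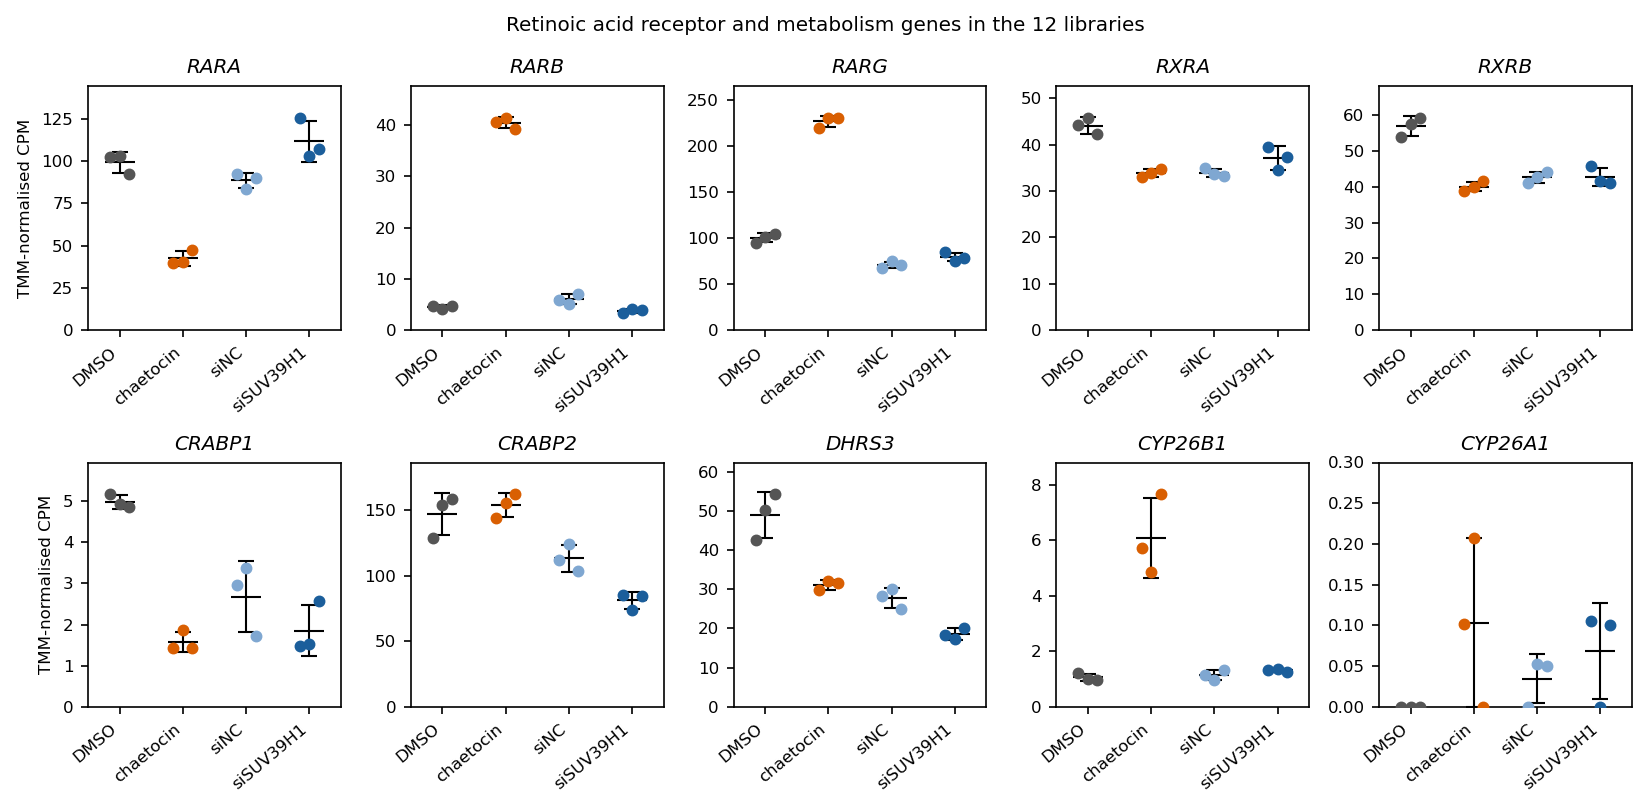
Level of each of the 10 members in every library (CPM on a linear axis from 0, a panel per gene), with points for single libraries and bars for the group mean and SD. RARB is at 39.3 to 41.4 CPM in the 3 chaetocin libraries and at 7.1 CPM or less in the other 9.

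RARB, the receptor that retinoic acid induces and that lies at chromosome 3, 24829321-25597932 (coordinates throughout are those of hg38, from the RefSeq gene table), was the member with the largest rise. Its levels were 4.7, 4.2 and 4.8 CPM in the DMSO libraries and 40.7, 41.4 and 39.3 CPM in the chaetocin libraries. All chaetocin libraries thus stood far above all others. The rise was 8.86-fold, or 3.15 ± 0.12 on the log2 scale (SE, n = 3 per group, edgeR's quasi-likelihood test, Benjamini-Hochberg adjusted p = 1.88e-12). In bulk RNA, a change in the share of cells that express a gene and a change in the RNA per cell cannot be told apart. Knockdown moved RARB the other way. Its levels were 5.81, 5.16 and 7.1 CPM with siNC and 3.36, 4.07 and 3.92 CPM with siSUV39H1, with no overlap, and it fell by 0.67 ± 0.13 on the log2 scale (edgeR adjusted p = 0.00125).

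RARG, the receptor most abundant in TPM in DMSO (chromosome 12, 53210569-53232209), also rose with chaetocin. Levels of 95, 100.6 and 104.7 CPM in DMSO stood against 219.5, 229.6 and 230.2 CPM. The groups were far apart, and the rise was 2.26-fold (log2 1.18 ± 0.06, edgeR adjusted p = 1.16e-10). With siNC, RARG was at 67.9, 74.5 and 70.6 CPM, and with siSUV39H1 at 84.4, 74.8 and 78.6 CPM. The latter were all higher, but by a margin that did not pass the test (log2 0.16 ± 0.06, edgeR adjusted p = 0.0724). It passed with scaling by library totals only (0.20, adjusted p = 0.00696), on the TPM values with limma (0.27, adjusted p = 0.000468) and without siSUV39H1 replicate 2 (0.20, adjusted p = 0.0479).

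RARA (chromosome 17, 40309180-40357643), the receptor fused to PML in acute promyelocytic leukaemia, moved opposite to RARB under both treatments. It was at 102.5, 102.9 and 92.2 CPM in DMSO and at 39.9, 40 and 47.4 CPM with chaetocin. Every chaetocin library was below every DMSO library, and RARA fell by 1.23 ± 0.09 on the log2 scale (edgeR adjusted p = 4.52e-09). With siNC it stood at 92, 83.5 and 89.9 CPM, and with siSUV39H1 at 125.5, 102.8 and 106.8 CPM. These did not overlap either, and RARA rose by 0.34 ± 0.09 (log2, edgeR adjusted p = 0.00733). RARA shares 11.8% of its exon bases with RARA-AS1 on the opposite strand in GENCODE 29, and no source used here says whether strand was used in counting.

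The make-up of the RAR transcripts therefore differed between the groups. In DMSO, RARA made up 43.2 ± 2.9% of the summed RAR TPM, RARG 54.6 ± 2.92% and RARB 2.19 ± 0.182% (SD, n = 3). With chaetocin the share of RARA was 11.2 ± 0.889%, that of RARG 76.1 ± 0.446% and that of RARB 12.7 ± 0.457%. The sum of the RARs was 122.8 ± 4.41 TPM in DMSO and 221.2 ± 2.62 TPM with chaetocin. These sums carry no TMM scaling. On log2(TPM + 1) the median change of all genes with chaetocin was 0.155, against 0.043 with TMM. For siNC and siSUV39H1 the shares were closer, with RARA at 47.9 ± 2.22% and 51.7 ± 1.34%, RARG at 48.3 ± 2.55% and 46.3 ± 1.05%, and RARB at 3.78 ± 0.633% and 2.04 ± 0.299%. Of these, the ranges over libraries did not overlap for RARA and RARB and overlapped for RARG.

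**Figure D2:**
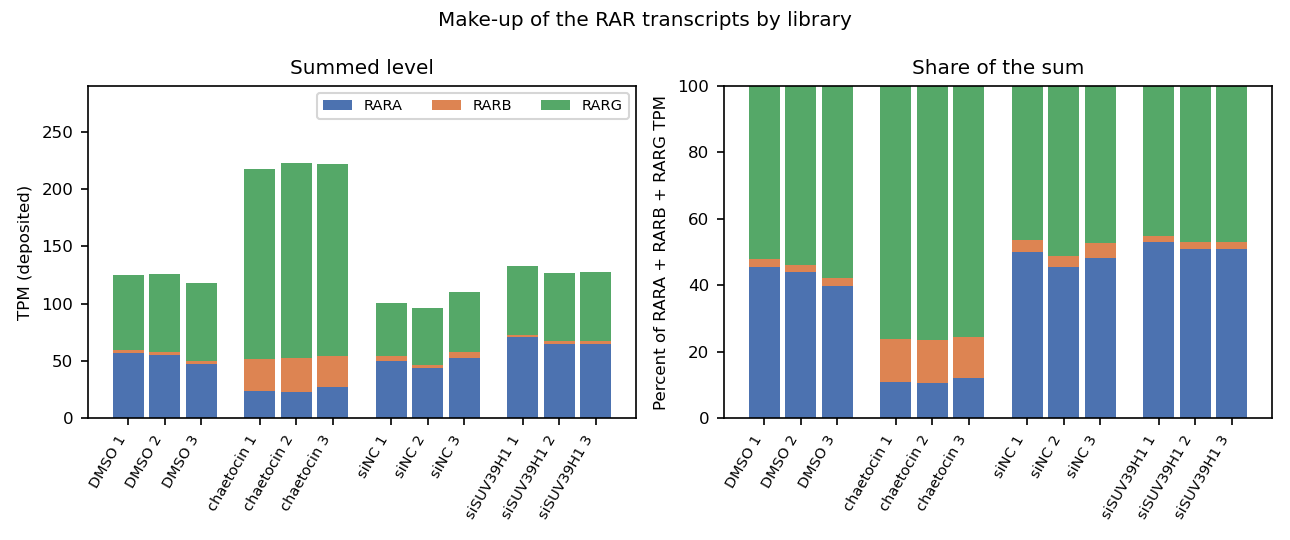
Levels of RARA, RARB and RARG in each of the 12 libraries as stacked bars of TPM (one panel) and as each gene's share of their summed TPM in percent, from 0 to 100 (the other panel). RARB is at 12.2 to 13% in the chaetocin libraries and at 4.48% or less in the others, where RARA and RARG make up nearly all of the sum.

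The RXRs, the shared dimer partners, fell with chaetocin by less than RARA. RXRA (chromosome 9, 134326455-134440585) was at 44.3, 45.8 and 42.3 CPM in DMSO and at 33, 33.9 and 34.8 CPM with chaetocin, and RXRB (chromosome 6, 33193588-33200853) at 54, 57.6 and 59.2 CPM and at 38.9, 39.9 and 41.5 CPM. Neither pair of groups overlapped. RXRA fell by 0.38 ± 0.07 on the log2 scale (edgeR adjusted p = 0.000186) and RXRB by 0.51 ± 0.07 (adjusted p = 7.04e-06). With knockdown, RXRA was at 34.6 to 39.6 CPM against 33.3 to 34.9 CPM with siNC (log2 0.13 ± 0.07, edgeR adjusted p = 0.194), which passed with library totals only (0.17, adjusted p = 0.0479) and on TPM (0.22, adjusted p = 0.0474). RXRB was at 41.1 to 45.7 CPM against 41.1 to 44.1 CPM (log2 0.01 ± 0.07, adjusted p = 0.975). RXRB made up 72 ± 1.53% of the RXR TPM in DMSO and 69.3 ± 0.451% with chaetocin. It shares 6.22% of its exon bases with the protein-coding gene SLC39A7 on the opposite strand. RXRG, the remaining RXR, had 1 count over the DMSO libraries and 11 over the chaetocin libraries and was not tested.

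The carrier proteins differed from each other. CRABP2 (chromosome 1, 156699606-156705784), which delivers retinoic acid to the RARs, was at 129.2, 154.3 and 158.9 CPM in DMSO and at 144.4, 155.4 and 162.3 CPM with chaetocin. These groups overlapped, and the difference did not pass the test (log2 0.06 ± 0.09, edgeR adjusted p = 0.526). The direction rests on 1 library, since without DMSO replicate 1 it was -0.03, while with library totals only, which moves the median of all genes from 0.04 to 0.19, it was 0.21 (adjusted p = 0.0202), and on TPM 0.22 (adjusted p = 0.0046). Knockdown gave a fall: 112.2, 124.5 and 103.7 CPM with siNC stood above 85.1, 73.8 and 84.9 CPM with siSUV39H1, and CRABP2 fell by 0.48 ± 0.09 on the log2 scale (edgeR adjusted p = 0.00078).

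CRABP1 (chromosome 15, 78340353-78348225), the other cytosolic carrier, was at 5.17, 4.93 and 4.85 CPM in DMSO and at 1.43, 1.87 and 1.44 CPM with chaetocin. The chaetocin libraries were all lower, and CRABP1 fell by 1.66 ± 0.25 (log2, edgeR adjusted p = 1.66e-05). With siNC it was at 2.95, 3.37 and 1.71 CPM and with siSUV39H1 at 1.47, 1.52 and 2.56 CPM, which overlap through the last library of each. The difference of -0.53 ± 0.26 did not pass (log2, edgeR adjusted p = 0.13), but passed without siNC replicate 3 (-0.77, adjusted p = 0.0207) or without siSUV39H1 replicate 3 (-0.83, adjusted p = 0.0349). The annotated locus AC011270.2 covers 47.2% of its exon bases on the opposite strand.

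DHRS3, which keeps retinaldehyde low by reducing it to retinol (chromosome 1, 12567910-12618210), was the only member that fell under both treatments at the threshold used. Its levels were 42.7, 50.2 and 54.3 CPM in DMSO and 29.8, 32.2 and 31.7 CPM with chaetocin, and they were 28.2, 30.1 and 25 CPM with siNC and 18.4, 17.2 and 20.1 CPM with siSUV39H1. In both pairs all treated libraries were below all controls. DHRS3 fell by 0.65 ± 0.10 with chaetocin (log2, edgeR adjusted p = 2.08e-05) and by 0.58 ± 0.10 with knockdown (adjusted p = 0.000522). The difference between these effects was -0.07 ± 0.14 (log2, edgeR adjusted p = 0.671), and it changed sign with library totals only (0.04).

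CYP26B1, a hydroxylase that clears retinoic acid (chromosome 2, 72129238-72147862), was at 1.21, 0.996 and 0.949 CPM in DMSO and at 5.7, 4.87 and 7.66 CPM with chaetocin. Over the group this is 60 counts against 350, a depth-scaled ratio of 5.76 (95% interval 4.37 to 7.7, counting error only). The groups were well apart, and the fitted rise was 5.74-fold (log2 2.52 ± 0.21, edgeR adjusted p = 2.13e-08). With siNC it was at 1.14, 0.948 and 1.31 CPM and with siSUV39H1 at 1.31, 1.37 and 1.26 CPM, which overlap (log2 0.21 ± 0.25, edgeR adjusted p = 0.552). CYP26A1, the related hydroxylase whose promoter element is shown above (chromosome 10, 93073475-93077885), was near the detection limit. It had 0 counts in each DMSO library, while the chaetocin libraries had 2, 4 and 0 counts, those of siNC 0, 1 and 1, and those of siSUV39H1 2, 0 and 2. A count of 0 over the DMSO group allows up to 3 counts. Against that limit the 6 counts with chaetocin, where 1 library was also at 0, stood 1.97-fold higher. This ratio leaves out the counting error of the 6 counts, so the rise can be smaller. Without the filter on low counts its edgeR adjusted p was 0.049, just under the threshold and resting on these few counts. It shares 25.2% of its exon bases with AL358613.3 on the same strand.

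**Figure D3:**
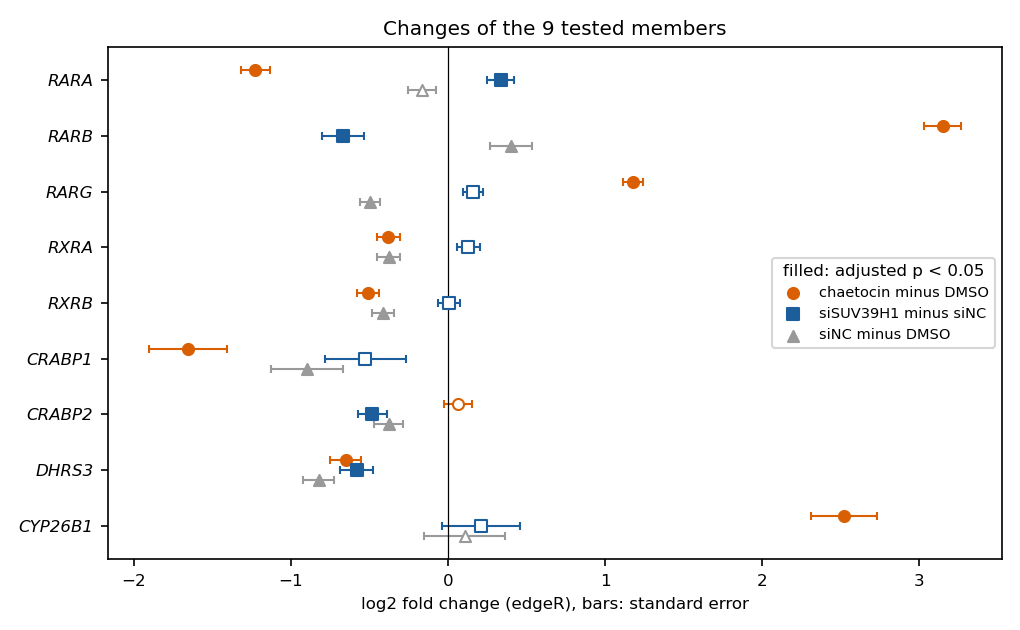
Log2 fold change (points) with its standard error (bars) for the 9 tested members in 3 comparisons, filled where the adjusted p is under 0.05. Chaetocin raises RARB, RARG and CYP26B1 and lowers RARA, RXRA, RXRB, CRABP1 and DHRS3, whereas the knockdown values lie between -0.67 and 0.34.

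The effects of chaetocin and of knockdown, each against its own control, differed at the threshold for 8 of the 9 tested members (67.6% of all genes), all except DHRS3. Chaetocin had the more positive effect for 4 of them, RARB, RARG, CRABP2 and CYP26B1, beside 33.9% of all genes, and the more negative one for the other 4, beside 33.7%. The difference was 3.82 ± 0.18 for RARB and -1.56 ± 0.12 for RARA on the log2 scale (edgeR adjusted p = 5.05e-11 and 2.2e-08). For CRABP1 the call was lost without siSUV39H1 replicate 3 (-0.83, adjusted p = 0.0529, against -1.13 ± 0.36, adjusted p = 0.0118).

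The control groups also differed from each other. Between siNC and DMSO, 7 of the 9 members passed the test, beside 35.2% of all genes, 1 higher (17.0%) and 6 lower (18.2%), and 8 did not overlap, beside 46.5%. RARG, RXRA, RXRB, CRABP1, CRABP2 and DHRS3 fell, by 0.38 to 0.90 on the log2 scale, with DHRS3 at -0.82 ± 0.10 (edgeR adjusted p = 1.62e-05) and CRABP1 at -0.90 ± 0.23 (adjusted p = 0.0068). RARB rose by 0.40 ± 0.13 (log2, edgeR adjusted p = 0.0268). That call was lost in a fit of the 6 libraries alone (adjusted p = 0.0672), without DMSO replicate 2 (adjusted p = 0.111), without siNC replicate 1 (adjusted p = 0.0506) and without siNC replicate 3 (0.27, adjusted p = 0.154). Transfection, the control RNA, the solvent and any handling that goes with them cannot be told apart here. This comparison shares the DMSO libraries with that of chaetocin and the siNC libraries with that of the knockdown.

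Genes that take up, bind and oxidise retinol, or store it, were mostly lower with chaetocin. Of 23 such genes, 21 were in the tables and 15 were tested, of which 9 fell, 3 rose and 3 did not pass, with a median log2 change of -0.93 against 0.04 for all genes, of which 38.4% fell and 41.1% rose. LRAT and ALDH1A2 passed the filter on low counts only through the chaetocin libraries, and of the other 13 genes 9 fell and 2 rose, a count made after the data had been seen. STRA6, the membrane receptor for retinol uptake, went from 71.2 to 11.1 CPM (group means, log2 -2.69 ± 0.10, edgeR adjusted p = 1.24e-12). RDH10, which oxidises retinol to retinaldehyde, went from 61.9 to 10.7 CPM. ADH5, an alcohol dehydrogenase best known for clearing formaldehyde, went from 175 to 86.6 CPM. With knockdown 4 of the 15 fell, 1 rose and 10 did not pass (median -0.15, all genes 0.01), beside 18.6% lower and 15.3% higher over all genes. Those that fell were ALDH1A3, which makes retinoic acid from retinaldehyde, from 12 to 4.56 CPM, RDH11, a retinaldehyde reductase, from 60.3 to 28 CPM, RDH10 from 121.3 to 86 CPM and FABP5, a fatty acid carrier that also binds retinoic acid, from 9.52 to 6.4 CPM. ALDH1A3 also fell with chaetocin, by 1.26 ± 0.12 on the log2 scale (edgeR adjusted p = 1.7e-07). For RDH10 the controls differed, with siNC above DMSO (log2 0.97 ± 0.08, edgeR adjusted p = 4.9e-07). Its 86 CPM with siSUV39H1 therefore stayed above the 61.9 CPM of DMSO.

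Known retinoic acid target genes outside the 10 members moved in both directions. Of 16, 15 were in the tables and 11 were tested. With chaetocin 4 rose and 5 fell, with a median of 0.02 (log2), the same with STRA8 placed at its ratio against 3 counts in DMSO. Over all genes 41.1% rose and 38.4% fell, with a median of 0.04. STRA8 and NRIP1 passed the filter only through the chaetocin libraries, so that their rise was fixed by the filter. Of the other 9 genes 2 rose and 5 fell, with a median of -1.475. RET, the receptor tyrosine kinase of the GDNF family, went from 70.6 to 1.79 CPM (log2 -5.30 ± 0.16), and the homeobox genes MEIS2 and MEIS1 from 141 to 33.9 CPM and from 23.4 to 5.33 CPM. TGM2, a transglutaminase, went from 2954 to 1063 CPM. STRA8, a germ-cell gene named for its response to retinoic acid, had 0 counts in DMSO and 43 with chaetocin. Against 3 counts over the DMSO group this is 14.1-fold, without the counting error of the 43 counts. As its rise was fixed by the filter, this value describes the counts only. With knockdown 2 rose and 2 fell (median -0.03, all genes 0.01), beside 15.3% higher and 18.6% lower over all genes. MEIS2 rose from 108 to 167 CPM and MEIS1 from 23.3 to 44.7 CPM, while PLAAT4, a phospholipase also called RARRES3, fell from 1.85 to 0.725 CPM (log2 -1.34 ± 0.32, edgeR adjusted p = 0.00497). In DMSO PLAAT4 stood at 0.824 CPM, below siNC (log2 1.16 ± 0.32 for siNC against DMSO, edgeR adjusted p = 0.0108). That call was lost without DMSO replicate 1 (adjusted p = 0.0521) or siNC replicate 2 (0.062). With chaetocin PLAAT4 rose to 3.39 CPM (log2 2.03 ± 0.30 against DMSO, edgeR adjusted p = 1.35e-05). With knockdown TGM2 fell by 0.21 ± 0.08 (adjusted p = 0.0499), a call lost in 15 alternatives, with DESeq2-type size factors among them (adjusted p = 0.0658).

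Nuclear receptors that pair with RXRs and the coregulators of RARs made up the remaining list. Of 20 genes 19 were tested, and with chaetocin 13 rose, 4 fell and 2 did not pass, with a median of 0.55 (log2), beside 41.1% higher, 38.4% lower and a median of 0.04 over all genes. THRB passed the filter only through the chaetocin libraries, and of the other 18 genes 12 rose and 4 fell. NR4A2, an orphan receptor that can pair with RXRs, went from 1.53 to 60.3 CPM (log2 5.30 ± 0.14). THRA, a thyroid hormone receptor, went from 112.5 to 14.6 CPM. ZNF423, a zinc finger protein required for retinoic acid response in neuroblastoma cells, went from 51.8 to 5.22 CPM, and PRAME, a repressor of RAR signalling, from 247 to 63.8 CPM. With knockdown 3 rose, 2 fell and 14 did not pass (median 0.15, all genes 0.01), beside 15.3% higher and 18.6% lower over all genes. NR1H2, a liver X receptor, fell from 145 to 41.5 CPM, a log2 change of -1.81 ± 0.07. ZNF423 rose from 17.2 to 25.7 CPM and the acetyltransferase gene CREBBP by 0.45 ± 0.08 (log2). For ZNF423, siNC was below DMSO (log2 -1.59 ± 0.12, edgeR adjusted p = 1.6e-07). Its 25.7 CPM with siSUV39H1 therefore stayed below the 51.8 CPM of DMSO. The remaining rise with knockdown was that of EP300, which lost its call without siNC replicate 2 (0.17, edgeR adjusted p = 0.196, against 0.30). VDR, the vitamin D receptor, fell by 0.81 ± 0.25 (adjusted p = 0.0209), a call lost on TPM (adjusted p = 0.0966), in the fit of 6 libraries (0.0692), and without siNC replicate 1 (-0.60, 0.158), siNC replicate 2 (0.0527), siSUV39H1 replicate 2 (0.0507) or siSUV39H1 replicate 3 (0.0864).

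**Figure D4:**
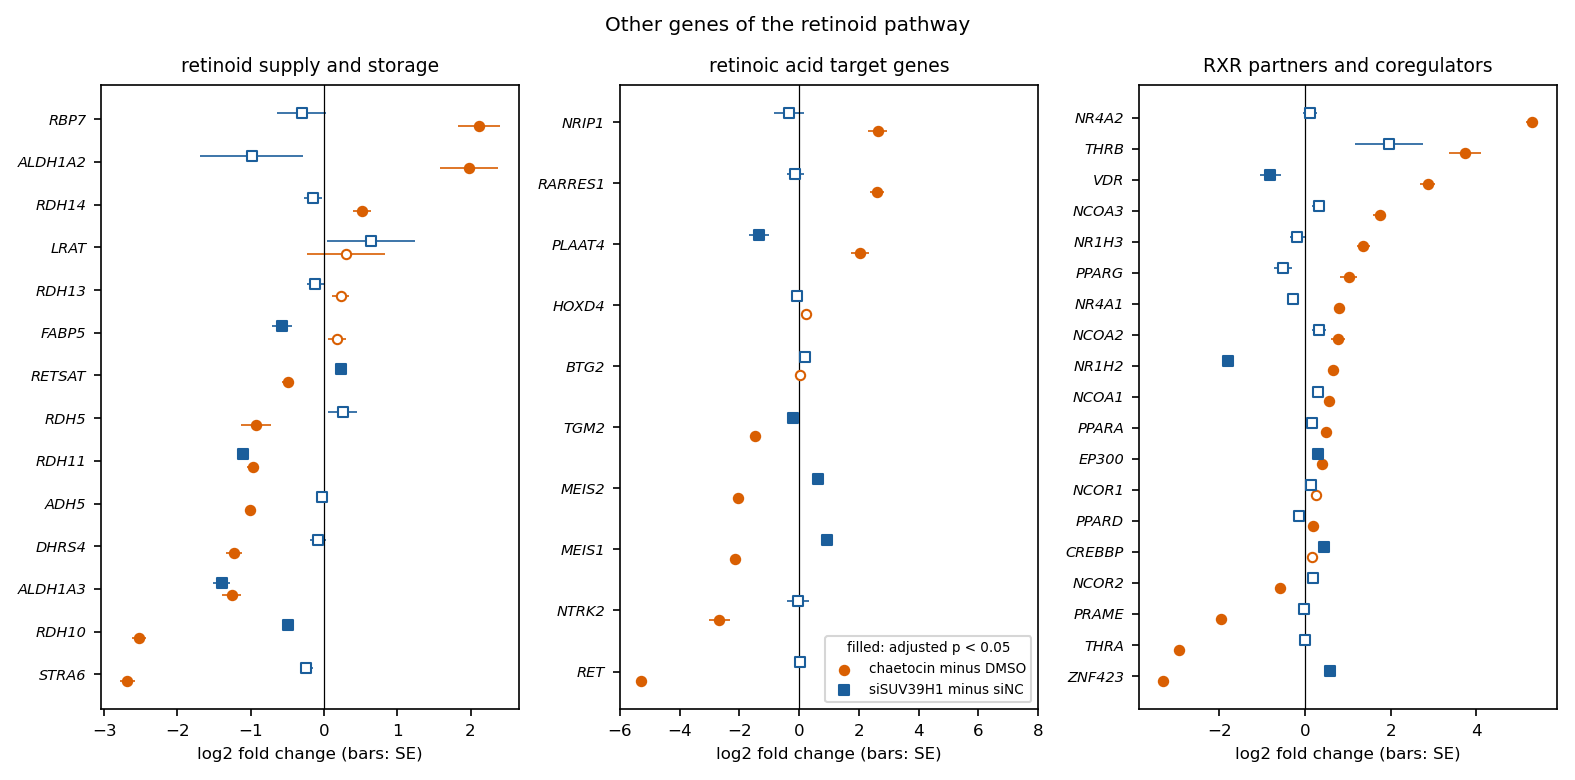
Log2 fold change with its standard error for tested genes of 3 retinoid lists, in chaetocin against DMSO (circles) and siSUV39H1 against siNC (squares), filled where the adjusted p is under 0.05. STRA8 is left out because its DMSO libraries are at 0, and among the supply genes shown STRA6 and RDH10 lie farthest to the left with chaetocin, at -2.69 and -2.53.

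Too few counts for a test were found for RBP4, TTR, BCO1, BCO2, DHRS9 and ADH4 among the supply genes and for HOXA2, HOXB2 and CDX1 among the targets, and ALDH1A1, CYP26C1 and HOXB1 are not analysed here.

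Markers of noradrenergic neuroblasts and of other cell types were read beside these results. Among all genes tested, 41.1% rose and 38.4% fell with chaetocin, and 15.3% rose and 18.6% fell with knockdown. Of the noradrenergic neuroblast markers, PHOX2A, HAND2, GATA3 and DBH were present in DMSO while TH was at 0 counts, and the summed level of the list was 919 to 1068 CPM with DMSO and 73 to 76.7 CPM with chaetocin, all 5 tested members having fallen. It was 463 to 508 CPM with siNC and 549 to 653 CPM with siSUV39H1, where 3 of the 5 rose. Both ranges were below that of DMSO. Between siNC and DMSO all 5 fell (median log2 -1.02), beside 18.2% lower over all genes. With chaetocin, 7 of 8 epithelial markers rose (summed level 104 to 123 CPM in DMSO, 161 to 174 CPM with chaetocin), as did 7 of 7 blood cell markers (162 to 167 CPM, 221 to 245 CPM) and 4 of 4 tested endothelial markers (3.8 to 4.48 CPM, 54.9 to 56.5 CPM). Of these, PTPRC, CD74, FCER1G, VWF and ERG passed the filter on low counts only through the chaetocin libraries, so that their rise was fixed by the filter. Most of the blood cell sum was CD68 alone, at 158 to 164 CPM in DMSO and 184 to 206 CPM with chaetocin. Of Schwann and glial markers, 2 of 5 tested rose and 2 fell with chaetocin (54.4 to 55.9 CPM, 53.2 to 58.6 CPM), and 4 fell with knockdown (55.3 to 58.7 CPM with siNC, 29.8 to 31.8 CPM with siSUV39H1). In DMSO the defining markers SOX10 and CDH5 were at 0 counts and PTPRC at 0.403 CPM. The part of these markers in the changes of the retinoid genes was not tested.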

How the data were processed

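RNA from 12 SK-N-SH libraries in 4 groups of 3 was analysed, with groups taken from the labels. The deposited tables give an expected count, an FPKM and a TPM value per gene and library, per the file headers. Of the upstream steps, the tools Bowtie2, RSEM (version 1.3.1) and DESeq2 (version 1.4.5) and the build hg38 are listed in the submitters' processing notes, without roles. The deposited FPKM values and the authors' averages were not used, and 0 library columns were left unmapped.

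Expected counts were rounded and fitted for all 12 libraries together with edgeR 4.0.16 in R 4.3.3 (filterByExpr, TMM, quasi-likelihood test with 8 residual degrees of freedom), with Benjamini-Hochberg adjustment over 15051 genes and a threshold of 0.05. The code was tested on simulated data. An exact two-sided permutation test of 3 libraries against 3 cannot go below 0.1, which it gave for each pair of groups without overlap. Alternatives used DESeq2 1.42.0, limma 3.58.1 on log2(TPM + 1), other scalings and filters, and left out each library. No 2 libraries agreed within sampling noise. At these depths 3 counts were taken as the limit that a count of 0 over a group allows. Intervals cover counting error only, and ratios against that limit leave out the counting error of the other group.

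All 10 members are named, and from each list the 4 genes called with the smallest p in each treatment comparison, the genes not tested, and defining markers. Some genes that this rule names are not reported here by name, and the counts, medians and sums of their lists include them. EP300, STRA8, CD68 and genes named for how they passed the filter were named after their values were seen. The members, lists and promoter motifs were chosen with earlier results of these data known.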

Additional observations from a re-analysis of the deposited data

Results flagged for a closer look

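The effects of chaetocin (against DMSO) and of SUV39H1 knockdown (against siNC) differed between the 2 treatments for 8 members, by the test of the difference itself in edgeR's quasi-likelihood fit, beside 67.6% of all genes. As log2 differences of the chaetocin effect minus the knockdown effect, the values were 3.82 ± 0.18 for RARB, 1.02 ± 0.09 for RARG and -1.56 ± 0.12 for RARA. CYP26B1 stood at 2.31 ± 0.33 and CRABP2 at 0.54 ± 0.13. RXRA was at -0.51 ± 0.10, RXRB at -0.51 ± 0.10 and CRABP1 at -1.13 ± 0.36. RARA and RARB were called in opposite directions by the 2 treatments.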

How the results depend on the processing

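The counts of members and of all genes past the threshold stayed within 1.5 times their main value under 8 other settings and 12 fits that each left out a library. Of 711 log2 changes of members under these, 692 kept their direction and side of the threshold, 5 lost the call, 9 gained it and 5 changed sign. Among those that changed sign, only values that had missed the threshold occurred: the difference of effects for DHRS3 with library totals only (0.035), and, over fits without a library, CRABP2 with chaetocin (-0.034 to 0.114), RXRB with knockdown (-0.044 to 0.033) and CYP26B1 in siNC against DMSO (-0.010 to 0.221). Members called numbered 8 with chaetocin, 4 to 5 with knockdown, 6 to 7 in siNC against DMSO and 7 to 8 for the difference when a library was left out, and 6 with knockdown (3 higher, 3 lower) with library totals only or on TPM. Over all genes these fits called 11500 to 12379, 3868 to 5463, 4167 to 5769 and 9619 to 10241. Knockdown calls over all genes were 2310 higher and 2799 lower, and 3318 higher and 1941 lower on TPM, the cause of which was not tested. Same-numbered libraries of different groups deviated together by correlations of -0.269 to 0.16, so the numbers do not pair them. With the replicate number as a block, 8, 4, 7 and 8 members were called in these 4 comparisons, and over all genes 11753, 4465, 4711 and 9821 instead of 11965, 5109, 5293 and 10171. Depth limits CYP26A1, at 0 to 4 counts per library.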
